A study of Mus musculus with 12 samples.

Results

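The genes described here are *Gata2*, *Tal1*, *Lyl1*, *Lmo2*, *Runx1*, *Erg* and *Fli1*, the 7 transcription factors known together as the hematopoietic heptad, and *Ldb1*, the cofactor that bridges several of them. The 8 genes were picked by name from the 55291 genes of a raw count table, and all 8 were among the 15825 genes with enough reads to be tested. RNA-seq was done on Lin-cKit+ (LK) bone marrow cells, the fraction that lacks mature lineage antigens and carries the stem cell factor receptor, from 12 individual C57BL/6 mice about a year old. The mice fell into 4 genotypes of 3: wild type (WT), Kdm6bΔ/+, which had lost 1 copy of the H3K27 demethylase gene *Kdm6b*, Asxl1Y588XTg, which carried a transgene for truncated Asxl1 and were preleukemic, and the double mutant Asxl1Y588XTg;Kdm6bΔ/+.

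In the Kdm6bΔ/+ and double-mutant mice, *Kdm6b* was deleted with *Mx1Cre*, a Cre that acts in blood-forming cells and other interferon-responsive tissues, after injection of pI:pC. Whether the WT and Asxl1Y588XTg mice of this experiment carried *Mx1Cre* or received pI:pC is not given in the sources used here, and neither is the promoter of the transgene. The deletion therefore cannot be told apart from that treatment if the treatment was restricted to the deleted mice.

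The heptad factors regulate blood stem and progenitor cells and occupy many enhancers together. Gata2 is a zinc finger factor of the GATA family needed for stem cell maintenance. Tal1 and Lyl1 are related basic helix-loop-helix factors that bind E-boxes with E proteins. Lmo2 is a LIM-only protein without DNA binding of its own that links them to GATA factors and is bound by Ldb1. Runx1 is a Runt-domain factor that works with Cbfb, and Erg and Fli1 are ETS factors. As blood cells commit to the erythroid lineage, Gata1 replaces Gata2 at many shared sites while Tal1, Lmo2 and Ldb1 continue to act there.

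Each library held 14451522 to 23482563 counted reads, and values below are counts scaled to a common library size (normalized counts) unless a per-length unit is named. *Kit* was abundant in all genotypes, with mean normalized counts of 6098 to 6902, and the 12 neutrophil marker genes still took 6.42 to 9% of the counts of a library, with *S100a9* and *S100a8* the highest per length. *Kdm6b* was 2145, 2375 and 1871 in WT and 1625, 1531 and 1347 in Kdm6bΔ/+ libraries, and 2274, 2306 and 2189.97 in Asxl1Y588XTg and 1651, 1875 and 1912 in double-mutant libraries. The deleted groups were lower than their counterparts without overlap in both pairs, but neither difference passed the test (log2 fold changes of -0.51 and -0.30, edgeR quasi-likelihood test, Benjamini-Hochberg adjusted p = 0.279 and 0.0717). *Asxl1* means were 2799.9 ± 269.7 in WT and 3004 ± 82.5 in Asxl1Y588XTg (SD, n = 3), where reads of the gene and of a truncated transgene cannot be separated. Y-linked transcripts were detected in 0 WT, 2 Kdm6bΔ/+, 1 Asxl1Y588XTg and 3 double-mutant libraries, so the sexes were not balanced over the genotypes. In the double mutant against WT, sex and genotype cannot be told apart. WT replicate 2 stood apart in the summed count of erythroid marker genes, 22176 against 42959 and 44277 in the other WT libraries. The genes of that list did not all vary alike. In WT, *Car2* was 10493 ± 4482 and *Slc4a1* 1200 ± 569 (SD, n = 3). The hemoglobin genes *Hbb-bs* and *Hbb-bt*, at 3781 ± 223 and 999.5 ± 82.8, and *Alas2*, at 320 ± 29.4, varied little.

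Promoter sequences from RefSeq (assembly GRCm38.p6, the same coordinates as mm10) were found for 6 of the 8 genes, with 13 annotated starts among them, and not for *Lmo2* and *Fli1*. The 250 bases before each start are read 5′ to 3′ on the gene's strand. *Gata2* is shown at both of its starts on chromosome 6, because it is the gene that passed both the p and the fold threshold below. *Ldb1* start 1 is shown because it held the most CpG dinucleotides of the 13, and *Runx1* start 1 because it was one of the pair that held the fewest. Capitals mark each CpG.
Gata2 start 1, chr6:88193641-88193890, plus strand: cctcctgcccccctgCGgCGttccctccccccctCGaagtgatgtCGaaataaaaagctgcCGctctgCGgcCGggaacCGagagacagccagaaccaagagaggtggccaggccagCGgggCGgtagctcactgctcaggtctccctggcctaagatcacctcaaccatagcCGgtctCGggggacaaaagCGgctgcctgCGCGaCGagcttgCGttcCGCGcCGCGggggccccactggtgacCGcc
Gata2 start 2, chr6:88198414-88198663, plus strand: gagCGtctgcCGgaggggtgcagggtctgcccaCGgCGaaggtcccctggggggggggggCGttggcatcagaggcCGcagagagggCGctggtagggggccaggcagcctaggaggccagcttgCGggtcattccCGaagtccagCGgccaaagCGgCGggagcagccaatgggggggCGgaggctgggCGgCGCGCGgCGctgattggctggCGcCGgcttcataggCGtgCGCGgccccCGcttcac
Ldb1 start 1, chr19:46045312-46045561, minus strand: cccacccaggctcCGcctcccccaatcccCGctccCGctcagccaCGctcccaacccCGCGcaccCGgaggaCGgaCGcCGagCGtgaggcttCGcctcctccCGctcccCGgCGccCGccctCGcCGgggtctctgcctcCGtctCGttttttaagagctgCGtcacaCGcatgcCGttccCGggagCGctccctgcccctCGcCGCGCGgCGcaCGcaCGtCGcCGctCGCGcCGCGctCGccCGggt
Runx1 start 1, chr16:92826075-92826324, minus strand: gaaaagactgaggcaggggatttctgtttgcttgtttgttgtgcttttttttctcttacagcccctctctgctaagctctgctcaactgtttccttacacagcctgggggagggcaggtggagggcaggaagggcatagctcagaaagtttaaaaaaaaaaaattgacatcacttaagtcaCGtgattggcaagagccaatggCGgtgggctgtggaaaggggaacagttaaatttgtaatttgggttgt
The *Gata2* windows held 22 and 24 CpGs, against a median of 6 over the 32851 windows of the table, which placed them at the 86.7th and 89.3rd percentile. *Ldb1* start 1 held 40, while its starts 2 and 3 held 22 and 4. *Runx1* start 1 held 2, while its start 2 held 27. CpG-rich promoters are the usual sites of Polycomb marking, the H3K27 methylation that Kdm6b removes. Chromatin was not measured in these libraries. Any part of CpG content or H3K27 methylation in the expression differences was not tested here.

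The same windows were searched on both strands for the core motifs of the heptad's own families, AGATAA for GATA factors, CAGCTG and CAGATG for E-boxes, CCGGAAG for ETS factors and TGTGGT for Runx factors. No match overlapped a match to another motif. The matches, shown with their flanks because they are the places where these letters occur before a heptad gene, were as follows, with the motif in capitals (TTATCT and CTTCCGG are the reverse complements).
Tal1 start 1, chr4:115056209-115056238, plus strand: ctatagagtcttTTATCTttgagcaattcc
Lyl1 start 1, chr8:84701263-84701293, plus strand: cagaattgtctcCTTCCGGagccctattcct
Erg start 3, chr16:95459434-95459463, minus strand: tttcagggtctcTTATCTctccactcccaa
Ldb1 start 3, chr19:46037293-46037320, minus strand: gctcaactgtTTATCTggtgggccgcac
Ldb1 start 3, chr19:46037253-46037282, minus strand: cgccagccccccTTATCTttctatcccttg
Counted from the start to the first base of the match, the GATA core stood at -205 of *Tal1* start 1, at -103 of *Erg* start 3, and at -240 and -200 of *Ldb1* start 3. It occurs in 9.99% of all windows of this length. The ETS core stood at -182 of *Lyl1* and occurs in 6.91% of all windows. Neither E-box nor the Runx core, found in 13%, 14.4% and 14% of windows, was in any of the 13, and no motif was in either *Gata2* window.

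The 8 genes were expressed at levels that spanned about an order of magnitude. Compared per length, as reads scaled for exon length and library size (RPKM), the WT levels were 89.3 ± 12.8 for *Lmo2* (SD, n = 3), 85.7 ± 6.01 for *Fli1* and 74.9 ± 2.59 for *Lyl1*. A second tier held *Erg* at 26.1 ± 2.54, *Ldb1* at 24.1 ± 5.08, *Tal1* at 20.3 ± 6.71 and *Runx1* at 15.4 ± 0.516, and *Gata2* was the lowest at 10.05 ± 1.98. The ranges of neighbors overlapped for *Lmo2* and *Fli1*, and for each neighboring pair from *Erg* to *Runx1*, so those orders are not distinguished by 3 libraries. *Fli1* was above *Lyl1* in every WT library, *Lyl1* above *Erg*, and *Runx1* above *Gata2*. The order was the same in Kdm6bΔ/+ and double-mutant cells except that *Fli1* and *Lmo2* traded places within overlapping ranges. In Asxl1Y588XTg cells *Gata2* reached 16.7 ± 0.805 and was no longer last, being level with *Runx1* at 15.4 ± 0.882, and *Lmo2* at 109 ± 5.38 stood above *Fli1* at 90.8 ± 6.36 without overlap.

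*Gata2* was higher in Asxl1Y588XTg LK cells than in WT and lower again in the double mutant. It was the 1 heptad gene that passed both thresholds, an adjusted p under 0.05 and a fold above 1.5. The gene lies at chr6:88193891-88207032 on the plus strand of mm10 (GENCODE gene model). Normalized counts for WT were 1057, 737 and 1070.1, and those for Asxl1Y588XTg were 1541, 1672 and 1538. It was 822, 617 and 871 in the double mutant and 590.2, 833 and 572 in Kdm6bΔ/+. Every Asxl1Y588XTg library was above all 9 others, and the other 3 genotypes overlapped one another.

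**Figure D1:**
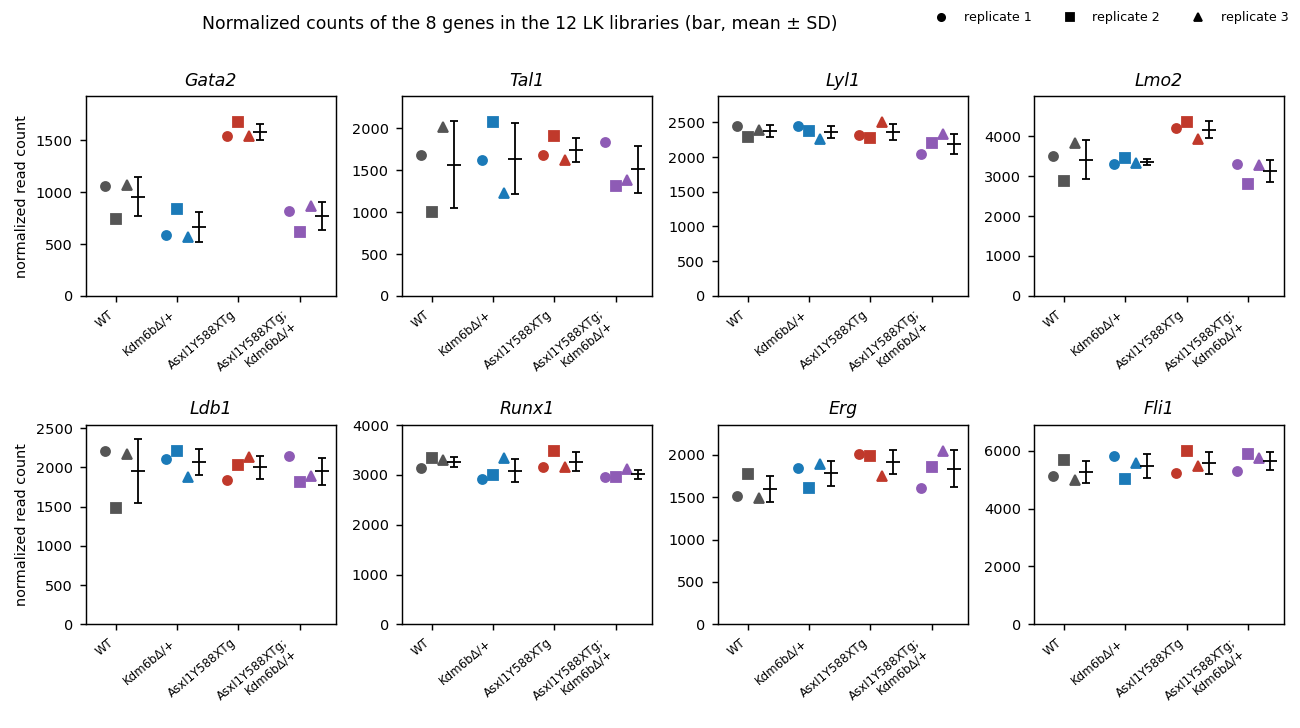
Normalized read counts (vertical axes, linear from 0) of the 8 genes in each of the 12 LK libraries, colored by genotype with 1 symbol per replicate number, and the mean ± SD of each genotype beside them. The 3 Asxl1Y588XTg libraries lie between 1538 and 1672 for *Gata2*, above all others, and WT replicate 2 is the lowest library for *Tal1* and *Ldb1*.

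The mean of *Gata2* rose from 955 ± 189 (SD, n = 3) in WT to 1584 ± 76.5 in Asxl1Y588XTg, which is 1.65-fold or a log2 fold change of 0.73 (95% interval 0.43 to 1.03, edgeR quasi-likelihood test, Benjamini-Hochberg adjusted p = 0.0276). The gene ranked 183rd by p among those tested, and its log2 fold change was higher than that of 90.4% of them. The call depended on single libraries: it was lost in 5 of the 6 fits that each left out 1 library, with log2 fold changes of 0.57 to 0.82. Without WT replicate 2, the lowest WT library, the change was 0.57 and fell under the 1.5-fold threshold although its adjusted p was 0.0124, and without WT replicate 3 or any 1 of the Asxl1Y588XTg libraries the adjusted p was between 0.0704 and 0.112.

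From Asxl1Y588XTg to the double mutant *Gata2* fell to 770.0 ± 135, or 0.492 of the Asxl1Y588XTg level, a log2 fold change of -1.02 (interval -1.29 to -0.75, edgeR quasi-likelihood test, adjusted p = 0.00686). It ranked 33rd by p, and 4.26% of tested genes had a lower log2 fold change. Leaving out double-mutant replicate 1 moved the adjusted p to 0.0573, with a log2 fold change of -1.07, and the other 5 such fits kept the call. With the detection of Y-linked transcripts as a covariate across all 4 genotypes, the estimate was -0.92 with an edgeR adjusted p of 0.0828. Both comparisons use the same Asxl1Y588XTg libraries.

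Without the transgene, the *Kdm6b* deletion went with a *Gata2* mean of 665 ± 146, a log2 difference from WT of -0.52 (interval -0.91 to -0.13) that did not pass adjustment over all genes (unadjusted p = 0.0134, edgeR quasi-likelihood adjusted p = 1), and the libraries overlapped. The double mutant differed from WT by -0.30 (interval -0.67 to 0.08) and from Kdm6bΔ/+ by 0.21 (interval -0.19 to 0.61), and neither passed (edgeR quasi-likelihood adjusted p = 0.795 and 0.653). The effect of the deletion with the transgene less its effect without was -0.52 (interval -1.05 to 0.01, edgeR interaction test on 12 libraries, adjusted p = 0.732). A dependence of the deletion's effect on the transgene was thus not detectable for *Gata2* with 3 mice per genotype.

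Across the 8 genes, 1 was called at an adjusted p under 0.05 and a fold above 1.5 in Asxl1Y588XTg against WT, where 1.61% of all tested genes were called, and 1 in the double mutant against Asxl1Y588XTg, where 1.74% were. In both cases it was *Gata2*. None was called in Kdm6bΔ/+ against WT (0.0948% of all genes called), the double mutant against WT (0.215%), the double mutant against Kdm6bΔ/+ (0.0948%) or the interaction (0.0126%), and DESeq2 called 0 there as well. At an unadjusted p under 0.05 in the edgeR test, those 4 comparisons had 1, 0, 0 and 1 of the 8 genes, *Gata2* and *Lmo2*, against 3.49%, 6.79%, 12.2% and 6.87% of all genes. At that level the first comparison had 3 (*Gata2*, *Lmo2* and *Erg*, all higher, against 9.35% of all genes) and the second 2 (*Gata2* and *Lmo2*, both lower, against 15.4%).

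The groups did not overlap for 2 genes in Asxl1Y588XTg against WT (*Gata2* and *Lmo2*, 15.7% of all genes) and for 3 in the double mutant against Asxl1Y588XTg (*Gata2*, *Lmo2* and *Runx1*, 21.2%). They did not overlap for *Runx1* in the double mutant against WT (13.5%), for *Lmo2* in the double mutant against Kdm6bΔ/+ (18.9%), and for none in Kdm6bΔ/+ against WT (8.93%). Median log2 fold changes of the 8 genes were 0.11 with the transgene and -0.10 for the deletion on top of it, against -0.01 and 0.00 over all tested genes. In the remaining comparisons they lay between -0.07 and 0.02, and the median of the 8 interaction estimates was -0.17 against -0.02 over all genes. All 8 were below 0, but the share of all genes below 0 was not counted. Those of *Runx1*, *Fli1* and *Ldb1* changed sign when single libraries were left out.

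**Figure D2:**
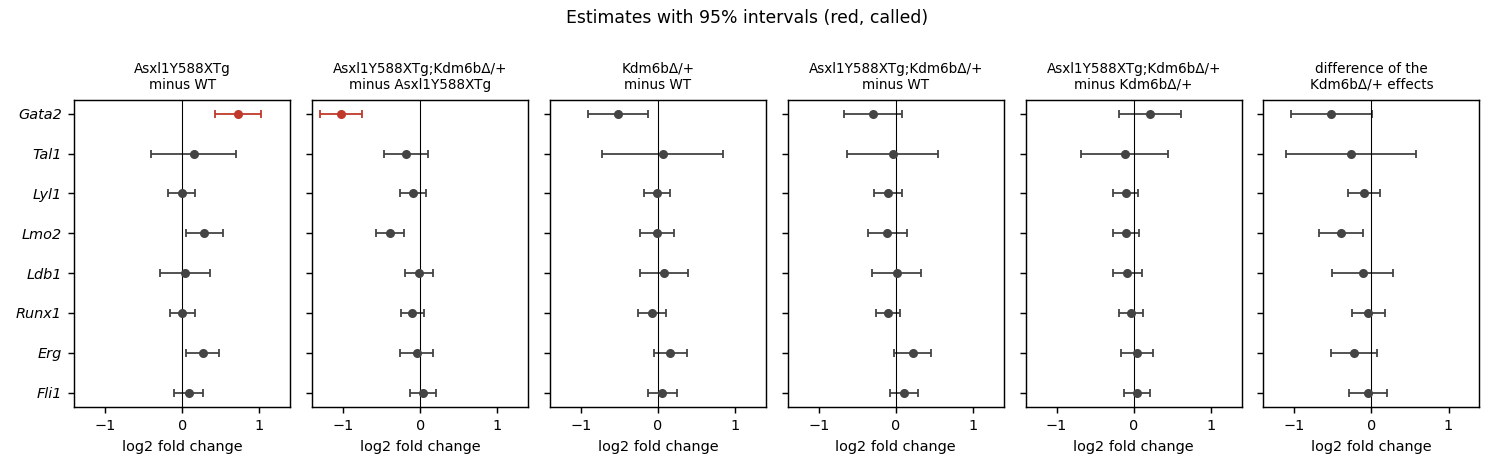
Log2 fold changes (horizontal axes) of the 8 genes with 95% intervals from the edgeR fits, 1 panel per comparison, with called genes in red. Of the 48 estimates, the 2 called ones are those of *Gata2*, at 0.73 and -1.02, and the intervals of *Tal1* are wide.

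*Lmo2* (chr2:103957986-103981878, plus strand), the LIM-only bridge between Tal1 and GATA factors, had the direction of *Gata2* with smaller steps in Asxl1Y588XTg against WT and in the double mutant against Asxl1Y588XTg. Its counts were 3509, 2874 and 3835 in WT, 3309.7, 3448 and 3329 in Kdm6bΔ/+, 4208, 4342 and 3939 in Asxl1Y588XTg and 3307, 2808 and 3281 in the double mutant. The Asxl1Y588XTg libraries were again the 3 highest of the 12. Their mean of 4163 ± 205 (SD, n = 3) was 1.22-fold that of WT, 3406 ± 489, a log2 difference of 0.29 that did not pass (interval 0.05 to 0.52, unadjusted p = 0.0216, edgeR quasi-likelihood adjusted p = 0.358). The double mutant, at 3132 ± 281, was at 0.761 of the Asxl1Y588XTg level, a log2 difference of -0.39 (interval -0.57 to -0.21) with an adjusted p of 0.0375 in the edgeR quasi-likelihood test, which passed the p threshold but not the fold threshold. At adjusted p alone 2.09% of all genes passed in that comparison. That adjusted p ran from 0.0498 to 0.17 when single libraries were left out. The interaction estimate was -0.39 (interval -0.68 to -0.10, unadjusted p = 0.0108, edgeR adjusted p = 0.544).

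*Ldb1* (chr19:46031570-46045214, minus strand) encodes the self-associating LIM-domain binder that ties distant enhancers to promoters, and its level did not separate the genotypes. The counts were 2211, 1477 and 2169 in WT, 2108, 2204 and 1879.8 in Kdm6bΔ/+, 1841, 2027 and 2128 in Asxl1Y588XTg and 2145, 1817 and 1884 in the double mutant. WT replicate 2 was the lowest of the 12 libraries, and apart from it the values lay between 1817 and 2211. The log2 fold change was 0.03 with the transgene (interval -0.30 to 0.36) and -0.02 for the deletion on top of it (interval -0.20 to 0.16). An exon of *Ldb1* shares 177 bases with *Pprc1* on the opposite strand, and since the strand setting of the counting is not stated, reads there cannot be assigned for certain.

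*Tal1* (chr4:115056426-115071755, plus strand), the basic helix-loop-helix factor needed to make blood and later red cells and megakaryocytes, reached the widest spread within a genotype. Its counts were 1685, 999 and 2013 in WT, 1615, 2068 and 1225 in Kdm6bΔ/+, 1685, 1903 and 1624 in Asxl1Y588XTg and 1832, 1307 and 1386 in the double mutant. The coefficient of variation reached 33.1% in WT, and all 4 genotypes overlapped. Log2 differences lay between -0.19 and 0.15 in the 5 pairwise comparisons. The interval of the WT comparison, -0.40 to 0.69, is wide enough to hold changes beyond 1.5-fold, so those were not detectable at this replicate number.

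*Lyl1* (chr8:84701457-84704715, plus strand), the close relative of *Tal1*, was by contrast steady at 2445, 2284 and 2393 in WT, 2448, 2368 and 2267 in Kdm6bΔ/+, 2316, 2269 and 2498 in Asxl1Y588XTg and 2046, 2196 and 2336 in the double mutant. Its highest library was 1.22-fold its lowest, against 2.07-fold for *Tal1* and 2.92-fold for *Gata2*. The estimates were -0.01 with the transgene (interval -0.18 to 0.16) and -0.09 for the deletion on top of it (interval -0.26 to 0.08). The overlap of *Lyl1* with *Nfix* on the opposite strand is 4 bases of exon.

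*Runx1* (chr16:92601466-92826149, minus strand), the core-binding factor subunit required for stem cells to emerge in the embryo, was also steady. It was 3135, 3343 and 3297 in WT, 2915, 2999.6 and 3349 in Kdm6bΔ/+, 3159, 3484 and 3162 in Asxl1Y588XTg and 2956, 2958 and 3112 in the double mutant. The 3 double-mutant libraries lay below the 3 WT and the 3 Asxl1Y588XTg libraries, by log2 differences of -0.10 in both cases, which did not pass (edgeR quasi-likelihood adjusted p = 0.831 and 0.519). *Runx1* shares 106 exon bases with the antisense gene *Gm26626*.

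*Erg* (chr16:95359169-95586593, minus strand) and *Fli1* (chr9:32422204-32542861, minus strand) are closely related ETS factors that share a DNA-binding preference, and *Erg* is needed for adult stem cell self-renewal. *Erg* was 1516, 1773 and 1494 in WT, 1847, 1613.5 and 1889 in Kdm6bΔ/+, 2009.75, 1990.4 and 1755 in Asxl1Y588XTg and 1607, 1861 and 2049 in the double mutant. WT had the lowest mean, 1595 ± 155 (SD, n = 3), and overlapped each other genotype. The transgene comparison gave a log2 difference of 0.26 (interval 0.05 to 0.48, unadjusted p = 0.0196, edgeR quasi-likelihood adjusted p = 0.338). *Fli1* was 5133, 5676 and 4972 in WT, 5804, 5007 and 5590.4 in Kdm6bΔ/+, 5232, 5998 and 5485 in Asxl1Y588XTg and 5285, 5875 and 5746 in the double mutant. The *Fli1* estimates ran from -0.04 for the interaction to 0.11 in the double mutant against WT, and all genotypes overlapped.

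A ratio of 2 genes in the same library does not depend on how libraries are scaled, and 3 ratios of related factors were compared in 5 pairwise comparisons each, 15 tests in all. *Gata2* against *Gata1*, its relative that takes over in red cell precursors, had count ratios of 1.02, 1.53 and 0.995 in WT, 0.779, 0.812 and 1.0999 in Kdm6bΔ/+, 2.48, 2.09 and 2.48 in Asxl1Y588XTg and 0.871, 0.878 and 1.44 in the double mutant. The Asxl1Y588XTg libraries were again above all others. The ratio was 2.03-fold that of WT, and the double mutant was at 0.441 of Asxl1Y588XTg, each with an exact two-sided permutation p of 0.1, the smallest that 3 against 3 can give, and a Benjamini-Hochberg value of 0.375 over the 15. *Gata1* itself had means of 866 ± 333 in WT and 680 ± 103 in Asxl1Y588XTg (SD, n = 3), which overlapped (log2 difference of -0.35, edgeR adjusted p = 0.836).

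The *Erg* to *Fli1* ratio was 0.295, 0.313 and 0.301 in WT, and all 3 Asxl1Y588XTg values, 0.384, 0.332 and 0.320, and all 3 Kdm6bΔ/+ values, 0.318, 0.322 and 0.338, were above them. These differences of 1.14-fold and 1.08-fold also had an exact permutation p of 0.1, the smallest that 3 against 3 can give. Their Benjamini-Hochberg value was 0.375 over the 15 tests. The double-mutant values of 0.304, 0.317 and 0.357 overlapped all other genotypes. The *Lyl1* to *Tal1* ratio overlapped in all 5 comparisons, with WT values of 1.45, 2.29 and 1.19.

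**Figure D3:**
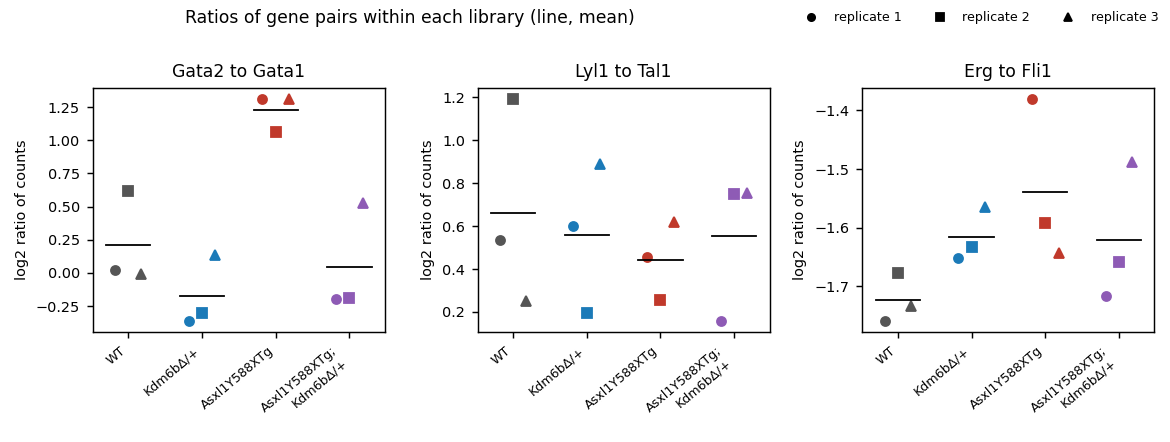
Log2 ratio of counts of 3 gene pairs (vertical axes) in each library, by genotype, with a line at each mean. The 3 Asxl1Y588XTg libraries are highest for *Gata2* to *Gata1*, with a mean of 1.23 against 0.21 in WT, and the 3 WT libraries and double-mutant replicate 1 are the 4 lowest for *Erg* to *Fli1*.

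None of the heptad's partners passed both thresholds. Of 23 tested genes, among them those for E proteins, the Ssbp proteins that stabilize Ldb1, Cbfb, corepressors, histone deacetylases, coactivators and Id proteins, 0 were called in any of the 6 comparisons by edgeR or by DESeq2, and at an unadjusted p under 0.05 there were between 1 and 4 per comparison, where 3.49% to 15.4% of all genes were. The 2 with the highest levels per length were *Smarca4*, the SWI/SNF ATPase, at 50.6 RPKM, and *Cbfb*, the partner of Runx1, at 49.5. *Cbfa2t3*, a corepressor of the Tal1 complex that is named after its values were seen, was lower in the double mutant than in Asxl1Y588XTg by -0.47 on the log2 scale (standard error 0.08, edgeR quasi-likelihood adjusted p = 0.0142), short of the fold threshold, with means of 1271 and 1782. In WT its mean was 1361.

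Of 18 tested relatives in the GATA, Tal, Lmo, Runx and ETS families, 0 were called in any comparison by edgeR and at most 1 under the other settings, where edgeR called 0.0126% to 1.74% of all genes, and 1 to 5 had an unadjusted p under 0.05, against 3.49% to 15.4% of all genes. The highest were *Spi1*, the ETS factor PU.1, at 101 RPKM, and *Etv6*, at 44.8. The GATA family genes *Gata4*, *Gata5* and *Gata6* had too few reads to be tested, as did *Lmo3* and *Fev*.

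Of 30 genes known as heptad targets in stem and progenitor cells, 6 were higher in Asxl1Y588XTg than in WT and 0 lower, against 1.58% and 0.0316% of all tested genes. They included *Procr*, *Mecom*, *Tek*, *Hlf* and *Meis1*, with log2 fold changes of 2.97, 1.99, 1.81, 1.26 and 1.26. In the double mutant against Asxl1Y588XTg, 4 were lower and 0 higher, against 1.59% and 0.145% of all genes: *Procr*, *Mecom*, *Tek* and *Meis1*, at -2.16, -1.55, -1.39 and -1.07. *Itga2b*, the platelet integrin, was the 1 gene of the list called elsewhere, at 0.68 in the double mutant against Kdm6bΔ/+. The list's median was 0.12 and -0.16 in the first 2 comparisons, and *Kit*, *Spi1*, *Ikzf1* and *Cebpa*, which encode a receptor and lineage factors of progenitors, were among the members not called in any comparison. The 4 lower calls dropped to 2 without Asxl1Y588XTg replicate 2 or without double-mutant replicate 1 or 2. All 6 of the higher genes also stand in the stem cell or endothelial marker lists. The target list was chosen with earlier results of these data known.

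In bulk RNA, more cells of a type and more RNA per cell cannot be told apart, and markers of several cell types differed between genotypes along with *Gata2*. Of 12 stem cell markers, 10 were higher in Asxl1Y588XTg than in WT and 7 were lower in the double mutant than in Asxl1Y588XTg, against 1.58% and 1.59% of all genes, and their summed count was 1943 to 2561 in WT, 1732 to 2094 in Kdm6bΔ/+, 4974 to 6193 in Asxl1Y588XTg and 2075 to 2997 in the double mutant. The higher ones included *Procr*, *Fgd5*, *Slamf1* and *Mecom*, at log2 fold changes of 2.97, 2.53, 2.01 and 1.99, beside *Hoxb5*, whose mean count was 1.44 in WT and 27.3 in Asxl1Y588XTg. Leaving out single libraries gave 6 to 8 higher stem cell markers, fewest without WT replicate 2 or 3 or Asxl1Y588XTg replicate 1 or 2, and 3 to 7 lower ones, fewest without Asxl1Y588XTg replicate 2 or double-mutant replicate 2. Of 11 tested endothelial markers, 3 were higher in Asxl1Y588XTg than in WT (*Tek*, *Robo4* and *Tie1*, at 1.81, 1.78 and 1.34) and 3 were lower in the double mutant than in Asxl1Y588XTg (*Esam*, *Tek* and *Tie1*, at -1.73, -1.39 and -0.89), against the same shares of all genes, with sums of 1726 to 1874 in WT, 2756 to 3077 in Asxl1Y588XTg and 2033 to 2285 in the double mutant, and *Sox17* near 0. The megakaryocyte sum was 3263 to 4508 in WT and 6931 to 16816 in Asxl1Y588XTg, against 4882 to 6825 in the double mutant, and *Ppbp* was higher in the double mutant than in WT, by 2.49. The marker lists were chosen with earlier results of these data known, which limits the comparison with the shares of all genes. The part of these markers in the *Gata2* result was not tested.

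*Gata2* is also high in mast cells and basophils. Their 7 tested markers, led by *Hdc* and *Prss34*, had 0 calls in any comparison, sums of 7142 to 9240 in WT and 6835 to 8285 in Asxl1Y588XTg, and the mature mast cell proteases *Tpsab1* and *Mcpt4* were at 0 and near 0. None of the 13 erythroid markers was called in the 2 comparisons where *Gata2* was, and *Hbb-bt* and *Alas2* were lower in the double mutant than in WT, by log2 fold changes of -1.11 and -1.49. The neutrophil, monocyte and macrophage, B cell, T and NK cell and stromal lists had 0 calls in any comparison.

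**Figure D4:**
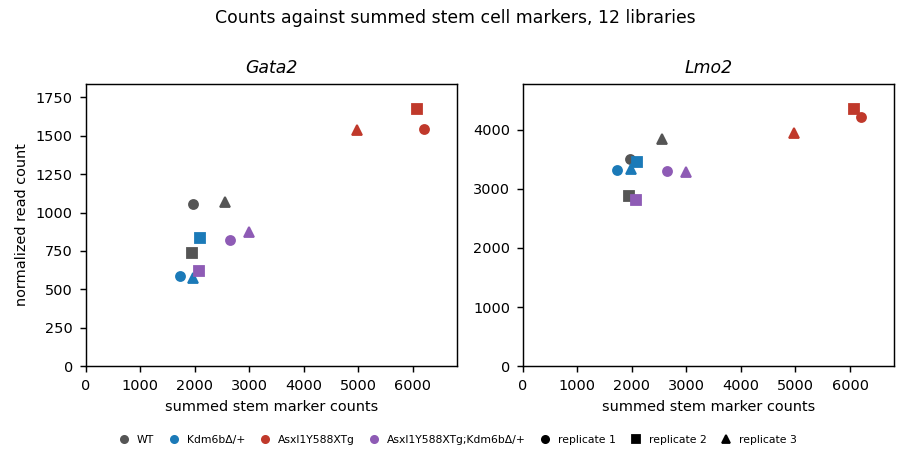
Normalized counts of *Gata2* and *Lmo2* (vertical axes) against the summed normalized count of the 12 stem cell markers (horizontal axes) in the 12 libraries, colored by genotype, both axes linear from 0. The 3 Asxl1Y588XTg libraries stand apart at 4974 to 6193 on the horizontal axis and are the highest on both vertical axes.

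The genes whose expression most resembled each member were ranked by Pearson r of log2-scaled counts over the 12 libraries, among the 9892 genes that averaged 100 reads or more. These libraries share genotypes, so r mixes differences between and within genotypes. *Gata2* was most like *Fam171a1*, *Mansc1* and *Nr4a1*, at 0.96, 0.96 and 0.95. The 95th percentile over the compared genes was 0.66, which the top-ranked genes exceed by the way they were picked. *Tal1* was most like *Tfr2*, *Zfpm1* and *Fads3* (0.94, 0.93 and 0.92), of which *Tfr2* is a transferrin receptor of red cell precursors and *Zfpm1* encodes Fog1, the cofactor of Gata1. *Lmo2* was nearest to *Kcnk5*, *Dag1* and *Tspan4* (all 0.93) and *Ldb1* to *2310022B05Rik*, *Carm1* and *Pip4k2c* (0.95, 0.95 and 0.94). For *Lyl1* they were *Snx9*, *Fam117a* and *Nudc* (0.87, 0.86 and 0.86), and for *Runx1* *Papss1*, *Znrd1* and *Ccdc8* (0.91, 0.89 and 0.81). *Erg* was nearest to *Eif2ak2*, *Tapbpl* and *Frmd6* (0.92, 0.91 and 0.90) and *Fli1* to *Tpm3*, *Serpinf1* and *Mgrn1* (0.88, 0.86 and 0.85).

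Within genotypes, the library with the highest *Tal1* count also had the highest *Lmo2* and the highest *Gata1* in 4 of 4 genotypes and the highest *Gata2* in 3, and it had the lowest *Erg* in 3 and the lowest *Fli1* in 3. It had the highest *Ldb1* in 2 of the 4 and the highest *Lyl1* in 0. The share of all tested genes that matched *Tal1* as often was not counted. The summed megakaryocyte markers were highest in the library with the highest *Tal1* in 4 of 4 genotypes. The summed erythroid markers were highest there in 3 and the summed stem cell markers in 2. The 4 libraries with the highest summed erythroid count, 37067 to 44277 (WT replicates 1 and 3, Kdm6bΔ/+ replicate 2 and double-mutant replicate 1), were the 4 highest for *Ldb1*, at 2145 to 2211 against 1477 to 2128 in the other 8, and the 4 lowest for *Erg*, at 1494 to 1613.5 against 1755 to 2049. They included 3 of the 4 highest for *Tal1* and 3 of the 4 lowest for *Fli1*. This division of the libraries was chosen after their values were seen and crosses the genotypes. How many of all tested genes separate the same 4 libraries was not counted. The part of erythroid cells in the division was not tested.

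**Figure D5:**
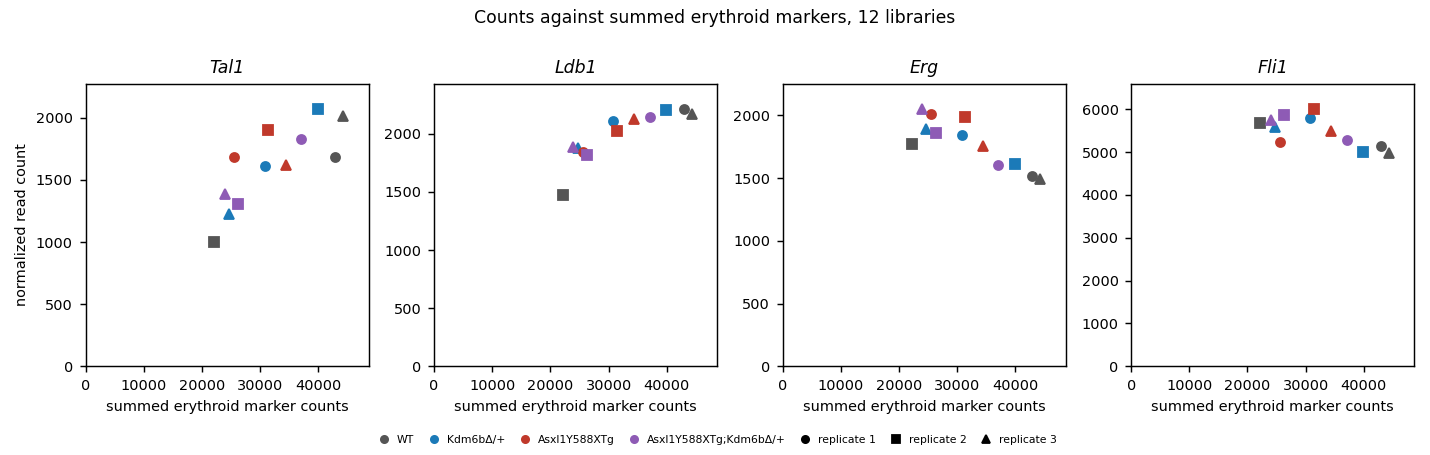
Normalized counts of *Tal1*, *Ldb1*, *Erg* and *Fli1* (vertical axes) against the summed normalized count of 13 erythroid markers (horizontal axes) in the 12 libraries, colored by genotype, all axes linear from 0. *Ldb1* is highest and *Erg* lowest in the 4 libraries with sums of 37067 or more, and WT replicate 2, at 22176, is the lowest for *Tal1* and *Ldb1*.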

How the data were processed

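RNA-seq of LK cells from 12 mice was analyzed. Per the submitters' processing notes, FastQC, Trimmomatic, STAR and HTSeq were used, and the authors deposited raw read counts per gene on mm10. The strand setting of the counting was not given. All 12 columns were matched to samples by title. Genes were filtered with filterByExpr, which left 15825 of 55291 genes, TMM-scaled and compared in pairs of genotypes with the robust quasi-likelihood test of edgeR 4.0.16 in R 4.3.3, with Benjamini-Hochberg adjustment over all tested genes. A gene was called at an adjusted p under 0.05 and a fold above 1.5. The interaction was fitted on 12 libraries. Ratios used a pseudocount of 0.5 count and an exact two-sided permutation test. RPKM used GENCODE exon lengths. DESeq2 1.42.0, a single fit, RLE scaling, other filters, a replicate block, a Y-linked covariate and leaving out each library were alternatives. The script was tested on simulated counts. Each library was 1 mouse. The partners, paralogs, targets and cell type markers were lists of known genes, from which up to 6 called genes per comparison by size were named, or the 2 of highest level where none was called. Some called list genes are not reported here by name. Members and lists were chosen with earlier results of these data known.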

Additional observations from a re-analysis of the deposited data

How the results depend on the processing

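*Gata2* kept its direction in both comparisons under all alternatives tried. In Asxl1Y588XTg against WT the log2 fold change was 0.72 to 0.80 and the call held in 6 of 7 alternatives, and it was 0.57 to 0.82 with single libraries left out, where 0 to 1 of the 8 genes was called. In the double mutant against Asxl1Y588XTg it was -1.04 to -0.92 in those 7 and -1.12 to -0.89 with single libraries left out, with 0 to 1 of the 8 genes called. The Y-linked covariate gave -0.92 and 0 called genes, with an edgeR adjusted p of 0.0828. The adjusted p of *Lmo2* there was 0.0506 in a single fit, 0.109 with the replicate block and 0.215 with the Y-linked covariate in edgeR. *Gata2* in Kdm6bΔ/+ against WT had an edgeR adjusted p of 0.0128 without a filter on low counts, under the fold threshold, and 0.729 in DESeq2.

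Replicate numbers did not pair the mice: deviations of libraries with the same number had a median correlation of -0.04 over 18 pairs, against 0.01 over 36 other pairs. The replicate block gave *Gata2* 0.74 in Asxl1Y588XTg against WT with 0 genes of the 8 called (edgeR adjusted p = 0.0818), and *Tal1* 0.00021 in the double mutant against WT. It kept the *Gata2* call in the double mutant against Asxl1Y588XTg.

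Counts over all genes depended more on the setting. Those called higher in Asxl1Y588XTg than in WT were 250, against 480 in DESeq2, 430 in a single fit, 591 without a filter and 96 with the block, and those lower in the double mutant than in Asxl1Y588XTg were 252, against 400, 150, 667 and 58, 43 with the Y-linked covariate and 167 at a mean of 50 or more.

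Estimates near 0 changed sign, none of them called, and the cause was not tested. With the Y-linked covariate they were *Lyl1* 0.0068 and *Runx1* -0.031 for Asxl1Y588XTg against WT, *Fli1* -0.098 and *Ldb1* 0.0024 for the double mutant against Asxl1Y588XTg, *Lyl1* 0.022 and *Fli1* -0.063 for Kdm6bΔ/+ against WT, *Tal1* 0.12 and *Fli1* -0.075 for the double mutant against WT, and *Erg* -0.0021 and *Fli1* -0.012 for the double mutant against Kdm6bΔ/+. The single fit gave *Ldb1* -0.0024 for the double mutant against WT.

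Leaving out single libraries gave these ranges where the sign changed. For Asxl1Y588XTg against WT they were -0.091 to 0.37 for *Tal1*, -0.050 to 0.023 for *Lyl1*, -0.041 to 0.028 for *Runx1* and -0.13 to 0.13 for *Ldb1*. For the double mutant against Asxl1Y588XTg they were -0.13 to 0.049 for *Erg*, -0.0080 to 0.088 for *Fli1* and -0.089 to 0.031 for *Ldb1*. For Kdm6bΔ/+ against WT they were -0.17 to 0.29 for *Tal1*, -0.032 to 0.030 for *Lyl1*, -0.12 to 0.085 for *Lmo2* and -0.082 to 0.18 for *Ldb1*. For the double mutant against WT they were -0.27 to 0.18 for *Tal1* and -0.15 to 0.11 for *Ldb1*. For the double mutant against Kdm6bΔ/+ they were -0.28 to 0.093 for *Tal1*, -0.073 to 0.027 for *Runx1*, -0.041 to 0.14 for *Erg* and -0.015 to 0.093 for *Fli1*. For the interaction they were -0.082 to 0.042 for *Runx1*, -0.099 to 0.017 for *Fli1* and -0.21 to 0.050 for *Ldb1*. The difference in the log2 ratio of *Gata2* to *Gata1* ranged from -0.40 to 0.039 in the double mutant against WT and -0.019 to 0.38 in the double mutant against Kdm6bΔ/+. The difference in the log2 ratio of *Lyl1* to *Tal1* ranged from -0.42 to 0.051 in Asxl1Y588XTg against WT, -0.30 to 0.17 in Kdm6bΔ/+ against WT, -0.31 to 0.16 in the double mutant against WT and -0.19 to 0.19 in the double mutant against Kdm6bΔ/+. The difference in the log2 ratio of *Erg* to *Fli1* ranged from -0.071 to 0.044 in the double mutant against Kdm6bΔ/+.

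With 3 mice per genotype, some intervals of uncalled estimates still held changes beyond 1.5-fold. They included that of *Tal1* in Asxl1Y588XTg against WT. Those of *Gata2* in Kdm6bΔ/+ against WT, the double mutant against WT or Kdm6bΔ/+, and the interaction were others.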
